A study of Mus musculus with 8 samples.

Results

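The cyclic AMP signalling genes of the mouse pituitary gonadotrope were examined as a list of 45 genes, matched by gene symbol among 55523 entries of the deposited count table, and each symbol had 1 entry. The list held 10 adenylyl cyclases, 2 catalytic and 4 regulatory subunits of protein kinase A, 3 protein kinase A inhibitors, 2 Epac exchange factors, 16 phosphodiesterases and 8 transcription factors and coactivators.

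The RNA came from EGFP-positive cells sorted from pituitary glands of Ad4BP-BAC-EGFP mice, in which a bacterial artificial chromosome carrying *Nr5a1* (Ad4BP) drives EGFP, and there were 4 female and 4 male samples. All samples carried this transgene and none was treated. The age, the stage of the estrous cycle and the number of glands behind a sample are not given in the sources used here, so p-values measure the spread between these samples. The comparison asked how the transcripts of the pathway differed between male and female gonadotropes, and male replicate 1 is shown apart because its authors excluded it.

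Adenylyl cyclases make cyclic AMP when receptors act on them through the stimulatory G protein, and phosphodiesterases degrade it. Cyclic AMP releases the catalytic subunits of protein kinase A from their regulatory subunits, and it also acts on the Epac exchange factors. Freed catalytic subunits phosphorylate CREB family factors, which bind the cyclic AMP response element (CRE) in promoters together with CRTC, CBP and p300 coactivators. In gonadotropes, the pathway is driven by PACAP and, beside calcium and protein kinase C, by GnRH, and it acts on gonadotropin subunit genes.

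The libraries held between 18774578 and 31302588 counts, so 3 counts, taken as the floor of detection, correspond to 0.0921 to 0.146 CPM (counts scaled to a common library total with TMM factors). All 8 gonadotrope markers (*Lhb*, *Fshb*, *Cga*, *Gnrhr*, *Nr5a1*, *Tgfbr3l*, *Nr0b1* and *Foxl2*) were above 0 in every library. Their summed level was 24045 to 37157 CPM in females and 71311 to 78066 CPM in male replicates 2 to 4. By single marker, *Fshb* was higher in these males without overlap (16894 to 30905 against 1402 to 5699 CPM), *Nr5a1* (584 to 801 against 862 to 1266 CPM) and *Foxl2* (37.1 to 64.6 against 78.7 to 108 CPM) were lower without overlap, and the other 5 overlapped. Male replicate 1 stood apart, with *Nr5a1* at 16.3 CPM against 584 to 1266 CPM in the other libraries. It had 11.1% of its counts on *Malat1*, against 0.706% to 0.925% in male replicates 2 to 4 and 1.27% to 1.59% in females. Markers of other pituitary cells were also present. The summed somatotrope markers, 3 of 3 above 0 in every library, were 12407 to 57909 CPM in females and 65364 to 142359 CPM in male replicates 2 to 4. Lactotrope markers summed to 4677 to 18129 CPM in females and 6241 to 15705 CPM in these males. Corticotrope and melanotrope markers summed to 12662 to 22285 CPM in females and 10425 to 28943 CPM in these males.

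Most of the pathway was transcribed in these sorted samples, which also held markers of other pituitary cells. Of the 45 genes, 34 had at least 1 CPM in every sample. *Pde4c*, a cyclic AMP-specific phosphodiesterase, had 0 counts in all 8 libraries, which allows up to the floor given above, for counting error only. *Adcy10*, the soluble adenylyl cyclase, and *Pde11a*, a phosphodiesterase of both cyclic nucleotides, reached at most 0.0855 and 0.556 CPM outside male replicate 1. These 3 genes did not pass the filter on low counts, and the other 42 were tested between the sexes.

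**Figure D1:**
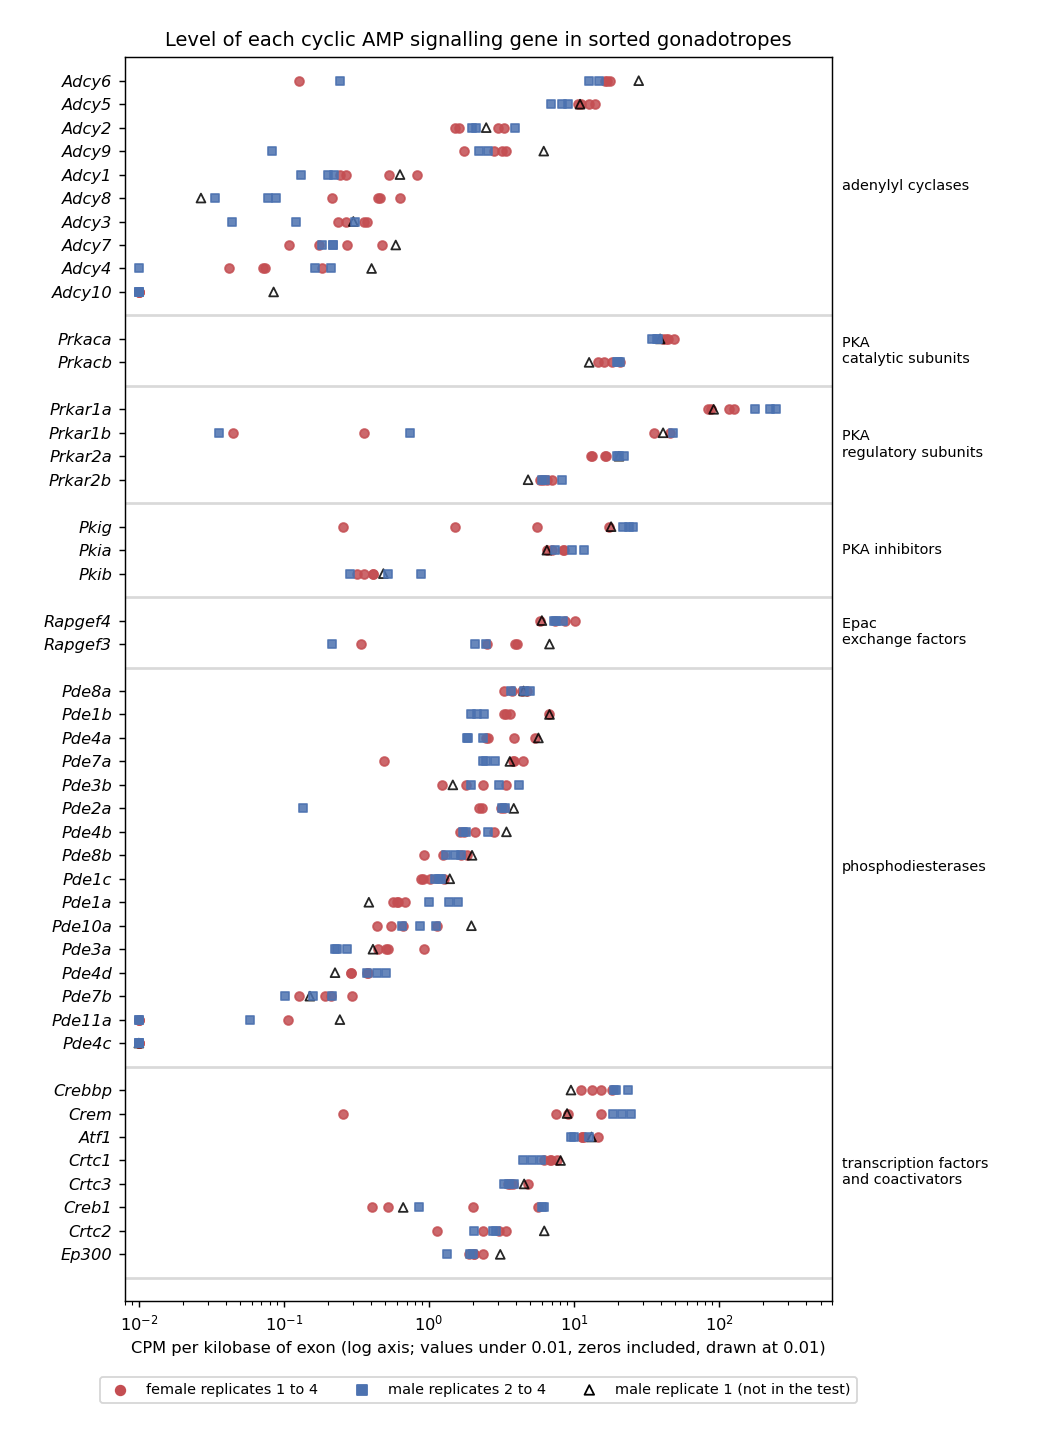
Level of each of the 45 genes in each library, in CPM per kilobase of exon on a log axis, by class, with values under 0.01 drawn at 0.01. *Prkar1a* had the highest mean per kilobase of the list (152), *Pde4c* lay at 0, and 8 genes had 1 or more libraries far below the rest.

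Of the 42 genes tested, 2 passed an adjusted p of 0.05 in edgeR's quasi-likelihood test. *Prkar1a*, a regulatory subunit of protein kinase A, was higher in males and *Adcy8*, a calcium-stimulated adenylyl cyclase, was higher in females. This was 4.76% of the tested genes, beside 2.34% of the 20152 entries tested across the genome (0.983% with the higher level in males, 1.35% in females). The groups did not overlap for 14 of the 42 genes (33.3%), beside 22.3% of all tested entries. Of these 14, *Prkar1a*, *Prkar2a*, *Pkig*, *Pde1a*, *Crem* and *Crebbp* were higher in males (6 genes, with a background of 11.5% of entries) and *Adcy1*, *Adcy5*, *Adcy8*, *Prkaca*, *Pde1b*, *Pde3a*, *Pde4a* and *Crtc1* were higher in females (8 genes, with a background of 10.8%). At an unadjusted p below 0.05 there were 12 of the 42 genes (28.6%), beside 19.9% of all entries. DESeq2 called 7 of the list, *Prkar1a*, *Prkar2a* and *Pde1a* higher in males (background 4.55%) and *Adcy5*, *Adcy8*, *Pde1b* and *Pde3a* higher in females (background 5.38%). On the log2 scale, the median difference, males minus females, was -0.07 for the list and -0.03 for all tested entries.

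**Figure D2:**
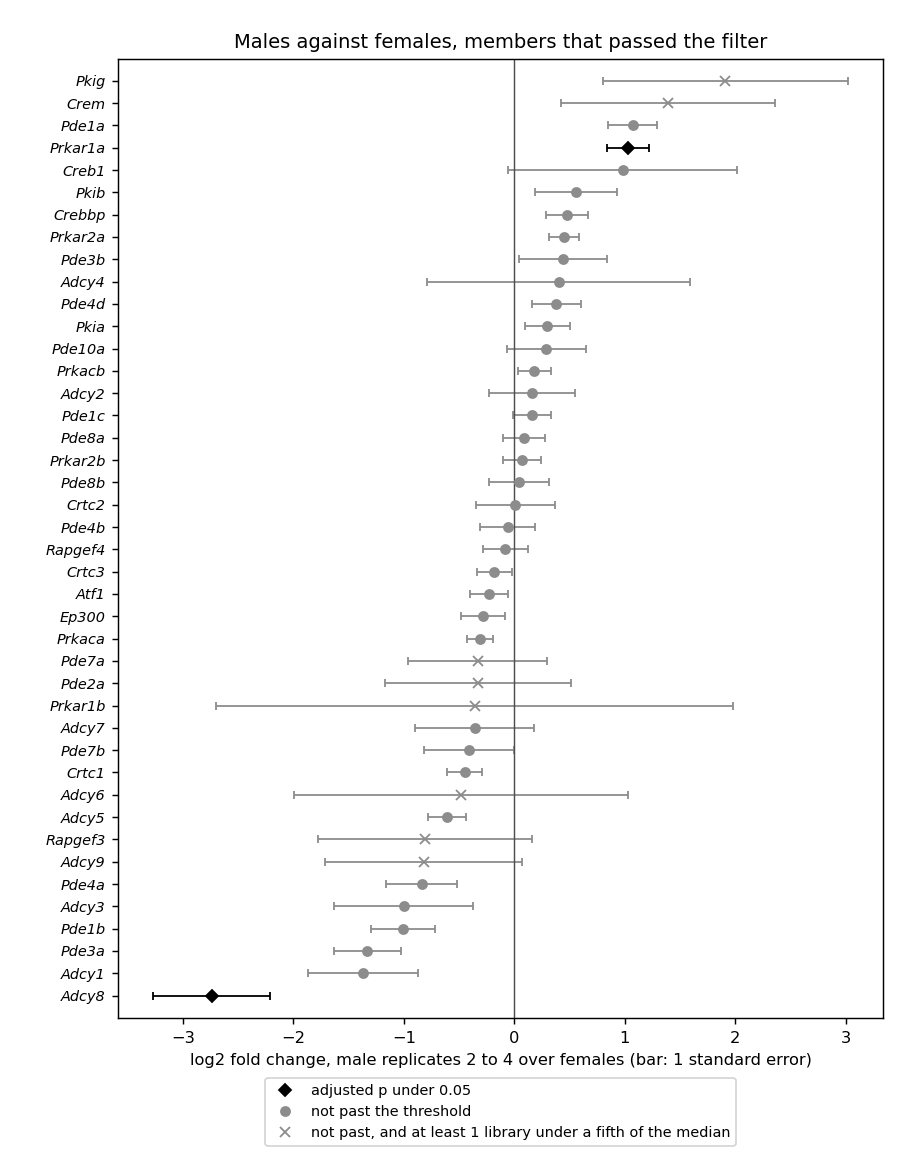
Log2 fold change of male replicates 2 to 4 over the 4 females for the 42 tested genes, with bars of 1 standard error from edgeR. *Prkar1a* (1.03) and *Adcy8* (-2.74) passed the adjusted threshold, and the widest bar was that of *Prkar1b* (2.34), which had 4 libraries near 0.

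The regulatory subunits hold the catalytic subunits inactive until cyclic AMP binds them. *Prkar1a* lies on the plus strand of chromosome 11 (chr11:109649405-109669656, GRCm38). It had 362, 380, 506 and 547 CPM in female replicates 1 to 4, 1069, 973 and 762 CPM in male replicates 2 to 4, with male replicate 1 at 396 CPM. The 3 males tested all lay above the 4 females, and male replicate 1 lay within the female range. The female mean was 449 ± 91.7 CPM (SD, n = 4) and the mean of the males tested was 935 ± 157 CPM (SD, n = 3), a log2 fold change of 1.03 (SE 0.19, 2.04-fold, adjusted p = 0.0494). With male replicate 1 in the fit, the log2 fold change was 0.83 (adjusted p = 0.399). The call was also lost when any 1 of the 7 libraries was left out, with log2 fold changes of 0.93 to 1.16 and adjusted p of 0.0631 to 0.154. In this bulk RNA, fewer cells of a type and less RNA per cell cannot be told apart. Summed markers of gonadotropes, somatotropes and thyrotropes (278 to 384 against 84.6 to 224 CPM, 3 of 3 markers above 0 in every library) were higher in these males without overlap, and those of stromal cells were lower (105 to 113 against 114 to 167 CPM, 6 of 6 markers). By single marker, *Gh*, *Tshb* and *Trhr* were higher in these males without overlap, while the thyrotrope marker *Dio2* was lower (39.0 to 49.5 against 63.2 to 139 CPM), as was *Col1a1* of stromal cells. The somatotrope markers *Ghrhr* (8.94 to 60.7 against 2.95 to 25.7 CPM) and *Pappa2* (26.1 to 54.0 against 9.79 to 41.3 CPM) overlapped. Of the gonadotrope markers, *Fshb* was higher and *Nr5a1* and *Foxl2* were lower without overlap, as given above. Of the other lists, the lactotrope marker *Agtr1a* (13.4 to 23.3 against 1.64 to 6.33 CPM) and the stem cell marker *Lcn2* (27.3 to 36.3 against 3.71 to 12.1 CPM) were higher in these males without overlap. The stem cell markers *Sox2* (29.8 to 37.1 against 49.5 to 77.8 CPM) and *Cdh26* (9.63 to 22.5 against 42.3 to 54.9 CPM) and the erythroid marker *Hbb-bs* (20.8 to 53.6 against 62.7 to 217 CPM) were lower. Their part in the differences between the sexes was not tested.

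Of the genes of the list with a promoter window, only *Prkar1a* held a full CRE, TGACGTCA. The windows were taken from RefSeq (GRCm38.p6), 250 bases before to 50 bases after each annotated start, and 37 of the 45 genes matched, with 77 windows (all but *Adcy6*, *Adcy8*, *Pde7a*, *Pde3a*, *Pkia*, *Crem*, *Crtc2* and *Pde3b*). The CRE was in 588 of all 32851 windows (1.79%), and the letters read the same on both strands. In *Prkar1a*, 1 site at chr11:109650900-109650907 fell in 2 of its 6 windows, and the other 4 held none. It begins 49 bases before the annotated transcription start of the window shown here and at base 39 of the transcript side of the other, counted from 1 at its start site. This window is chr11:109650699-109650998, plus strand, written 5′ to 3′ with the CRE in capitals.
Prkar1a: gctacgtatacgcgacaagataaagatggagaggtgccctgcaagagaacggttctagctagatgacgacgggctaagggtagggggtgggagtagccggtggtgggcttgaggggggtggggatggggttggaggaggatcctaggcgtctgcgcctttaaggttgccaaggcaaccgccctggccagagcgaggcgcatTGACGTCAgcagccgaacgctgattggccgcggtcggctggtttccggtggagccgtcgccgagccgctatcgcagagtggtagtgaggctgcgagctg
The shorter motif TGACG, searched on both strands as TGACG or CGTCA and contained in the full CRE, was in 18 of the 77 windows, from 16 genes, beside 20.8% of all windows. A match is a description of the letters and not of a bound site.

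The other regulatory subunits were lower per kilobase of exon. *Prkar2a*, a type II subunit, had 104, 83.8, 84.0 and 107 CPM in females, 131, 140 and 127 CPM in male replicates 2 to 4, with male replicate 1 at 130 CPM. Here all 4 males lay above the females, with a log2 fold change of 0.45 over the 3 males tested (SE 0.14, adjusted p = 0.145). *Prkar2b*, the type II subunit known from neuroendocrine tissue and fat, had 21.2 to 25.7 CPM in females, 21.9 to 30.0 CPM in the males tested (log2 fold change 0.07, adjusted p = 0.877) and 17.6 CPM in male replicate 1, below every other library. *Prkar1b*, the neuronal type I subunit, had 135 to 184 CPM in female replicates 3 and 4, male replicate 1 and male replicate 3, but 0.136 to 2.80 CPM in the other 4 libraries. This gap did not follow sex, and no direction could be given for *Prkar1b*.

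The catalytic subunits did not pass the threshold. *Prkaca*, the alpha subunit, had 106, 102, 111 and 121 CPM in females, 93.7, 85.9 and 93.2 CPM in male replicates 2 to 4, with male replicate 1 at 97.6 CPM. Each of the males lay below the females, by a log2 fold change of -0.31 (SE 0.12, adjusted p = 0.229). *Prkacb*, the beta subunit, had 128, 161, 182 and 142 CPM in females, 175, 184 and 172 CPM in male replicates 2 to 4, with male replicate 1 at 112 CPM, and the sexes overlapped. Per kilobase of exon union, *Prkaca* (mean 40.9 over the 7 libraries tested) led *Prkacb* (18.6) in all 8 libraries. This order depended on the length used, since with the longest transcript *Prkaca* led in 7 libraries and *Prkacb* in 1, and in CPM without division by length *Prkacb* was above in all 8. *Prkar1a* (152) led the regulatory subunits in all 8 libraries with each of these lengths and without one.

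Within a library, the regulatory subunits summed per kilobase, without *Prkar1b*, were 1.85, 1.81, 2.10 and 2.31 times the catalytic subunits in females. The ratio was 4.75, 4.56 and 3.58 in male replicates 2 to 4 and 2.25 in male replicate 1. The catalytic sum was 57.4 to 65.3 CPM per kilobase in females and 55.5 to 57.7 in these males, and the regulatory sum was 106 to 149 against 204 to 274. The sum rests mainly on *Prkar1a*, so the ratio is a description of the same difference and was given no test.

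**Figure D3:**
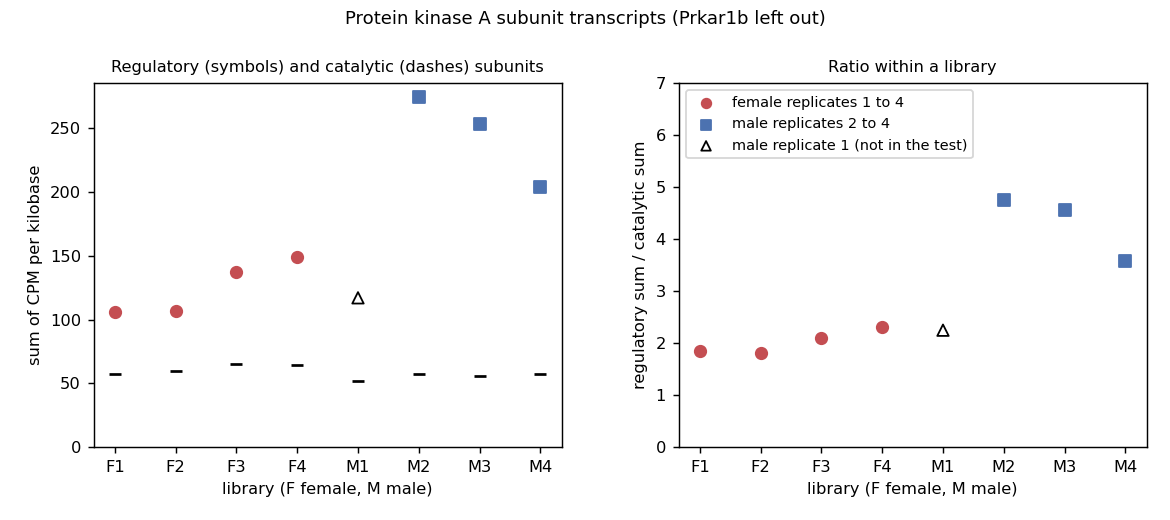
Protein kinase A subunit transcripts in each library, as the sum of CPM per kilobase of the regulatory subunits (symbols, *Prkar1b* left out) and the catalytic subunits (dashes), and their ratio. The ratio was 3.58 to 4.75 in male replicates 2 to 4 and 1.81 to 2.31 in the other 5 libraries.

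The adenylyl cyclases were led by *Adcy6* (mean 11.2 CPM per kilobase) and *Adcy5* (10.4), the cyclases that calcium inhibits, followed by *Adcy2* (2.50) and *Adcy9* (2.29). The other 6 had means of at most 0.347 CPM per kilobase. *Adcy5* had 80.3, 76.8, 90.3 and 101 CPM in females, 50.1, 59.6 and 65.2 CPM in male replicates 2 to 4, with male replicate 1 at 79.0 CPM. The 3 males tested lay below the females, with a log2 fold change of -0.61 (SE 0.17, adjusted p = 0.103). *Adcy6* had 119, 114, 0.859 and 110 CPM in females, 1.65, 86.0 and 101 CPM in male replicates 2 to 4, with male replicate 1 at 189 CPM. Female replicate 3 and male replicate 2 were thus at least 52.0-fold below every other library. Without them, the log2 fold change of *Adcy6* was -0.31 (adjusted p = 0.474).

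*Adcy8* lies on the minus strand of chromosome 15 (chr15:64697084-64922296, GRCm38), and calcium with calmodulin stimulates the enzyme. It had 3.72, 3.61, 1.75 and 5.19 CPM in females, from 87, 74, 57 and 120 counts. Male replicates 2 to 4 had 0.630, 0.717 and 0.272 CPM, from 16, 19 and 6 counts, and male replicate 1 had 0.218 CPM. All 4 males lay below all 4 females, but at a low level. Over the 7 libraries tested, *Adcy8* was 6.69-fold higher in females (log2 fold change -2.74, SE 0.53, adjusted p = 0.0494). The adjusted p was 0.0814 with male replicate 1 in the fit and 0.0592 to 0.147 when any 1 library was left out, with log2 fold changes of -2.99 to -2.44.

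*Adcy1*, the other main calcium-stimulated cyclase, had 6.63, 3.37, 3.04 and 10.4 CPM in females and 1.65, 2.53 and 2.77 CPM in male replicates 2 to 4. Male replicate 1 had 7.90 CPM, which was within the female range. The log2 fold change over the 3 males tested was -1.37 (SE 0.50, adjusted p = 0.194), and with male replicate 1 it was -0.66. *Adcy2*, which G protein beta-gamma subunits stimulate, had 6.37 to 13.9 CPM in females and 8.38 to 16.5 CPM in males tested. *Adcy9*, a widely expressed cyclase, had 9.08 to 17.7 CPM in females, 11.5 and 13.3 CPM in male replicates 4 and 3, and 0.433 CPM in male replicate 2. *Adcy3*, *Adcy4* and *Adcy7* had at most 3.20 CPM outside male replicate 1. Exons of *Adcy3* overlap the opposite strand gene *Cenpo* over 22.1% of their length, and the counting as described used no strand.

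The inhibitors of protein kinase A bind free catalytic subunits. *Pkig* had 69.6, 1.02, 22.2 and 5.97 CPM in females, 101, 87.2 and 95.0 CPM in male replicates 2 to 4, with male replicate 1 at 71.9 CPM. The males tested lay above the females, but the females differed among themselves so widely that the log2 fold change of 1.91 had an SE of 1.11 (adjusted p = 0.403). Without female replicates 2 and 4 it was 1.04 (adjusted p = 0.421), and without female replicate 1 it was 3.27 (adjusted p = 0.170). *Pkia* had 24.3 to 31.7 CPM in females and 27.4 to 44.0 CPM in males tested, and *Pkib* had 3.76 to 4.88 and 3.39 to 10.3 CPM. Per kilobase, *Pkig* led the inhibitors in 5 libraries and *Pkia* in 3.

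Of the Epac exchange factors, which activate Rap proteins on binding cyclic AMP, *Rapgef4* (Epac2) led in 7 of 8 libraries. It had 49.2, 38.8, 57.8 and 67.6 CPM in females, 50.4, 56.1 and 48.7 CPM in male replicates 2 to 4, with male replicate 1 at 40.1 CPM. The sexes overlapped, with a log2 fold change of -0.08 (SE 0.20, adjusted p = 0.892). *Rapgef3* (Epac1) had 16.0, 25.8, 2.15 and 24.9 CPM in females, 15.7, 13.3 and 1.36 CPM in male replicates 2 to 4, with male replicate 1 at 42.9 CPM, the library in which it led.

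None of the 14 phosphodiesterases tested passed the adjusted threshold in edgeR, and 4 (28.6%, beside 19.9% of all entries) had an unadjusted p below 0.05, 1 higher in males and 3 in females. DESeq2 called 3 of the 14, *Pde1a*, *Pde1b* and *Pde3a*, beside 9.93% of all entries. The groups did not overlap for 4 (28.6%, beside 22.3% of all entries). *Pde1a* and *Pde1b* encode calmodulin-stimulated enzymes. *Pde1a* had 3.42, 4.10, 3.62 and 3.67 CPM in females, 5.99, 8.31 and 9.58 CPM in male replicates 2 to 4, with male replicate 1 at 2.31 CPM. Its means were 3.70 ± 0.284 CPM (SD, n = 4) and 7.96 ± 1.82 CPM (SD, n = 3), a log2 fold change of 1.07 (SE 0.22, adjusted p = 0.0581 by edgeR and 0.00123 by DESeq2). Male replicate 1 lay below every other library.

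*Pde1b* had 36.1, 17.8, 18.2 and 19.4 CPM in females, 12.8, 11.5 and 10.6 CPM in male replicates 2 to 4, with male replicate 1 at 36.5 CPM. The males tested lay below the females and male replicate 1 lay above all of them. The log2 fold change of *Pde1b* was -1.01 (SE 0.29, adjusted p = 0.121), and with male replicate 1 in the fit it was -0.36. *Pde3a*, a phosphodiesterase that cyclic GMP inhibits, had 11.8, 5.71, 6.41 and 6.61 CPM in females, 2.96, 2.87 and 3.45 CPM in male replicates 2 to 4, with male replicate 1 at 5.24 CPM. All 4 males lay below the females, with a log2 fold change of -1.33 over the 3 tested (SE 0.30, adjusted p = 0.0723). *Pde4a*, which is specific for cyclic AMP, had 29.3, 19.4, 19.0 and 41.4 CPM in females, 14.1, 14.3 and 18.2 CPM in male replicates 2 to 4, with male replicate 1 at 43.5 CPM. Its log2 fold change was -0.84 (SE 0.32, adjusted p = 0.205), and with male replicate 1 it was -0.28.

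No phosphodiesterase led the class throughout. *Pde8a*, a high-affinity cyclic AMP phosphodiesterase, had the highest mean per kilobase of exon union (4.18), ahead of *Pde1b* (3.35), *Pde4a* (2.90) and *Pde7a* (2.90). This order depended on the length used. With the longest transcript, *Pde4b* (5.01) and *Pde4a* (4.78) were above *Pde8a* (4.45), and without division by length *Pde8a* led in 0 libraries. In CPM, *Pde8a* was among the most even, with 19.1, 15.1, 17.7 and 13.4 CPM in females, 18.2, 20.0 and 14.8 CPM in male replicates 2 to 4, with male replicate 1 at 18.2 CPM. *Pde1c*, *Pde3b*, *Pde4b*, *Pde4d*, *Pde7b*, *Pde8b* and *Pde10a* overlapped between the sexes, with log2 fold changes of -0.41 (*Pde7b*) to 0.44 (*Pde3b*). *Pde2a*, a phosphodiesterase that cyclic GMP stimulates, had 13.5 to 20.3 CPM in females, 20.5 and 19.6 CPM in male replicates 3 and 4, and 0.827 CPM in male replicate 2. In that library the entry *Gm45837*, whose exons cover 64.3% of those of *Pde2a* on the same strand, had 556 counts (21.9 CPM), and it had 0 counts in each of the other 7. *Pde7a*, a cyclic AMP-specific enzyme, had 29.2, 29.9, 34.6 and 3.80 CPM in females and 18.2, 22.2 and 19.2 CPM in male replicates 2 to 4.

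**Figure D4:**
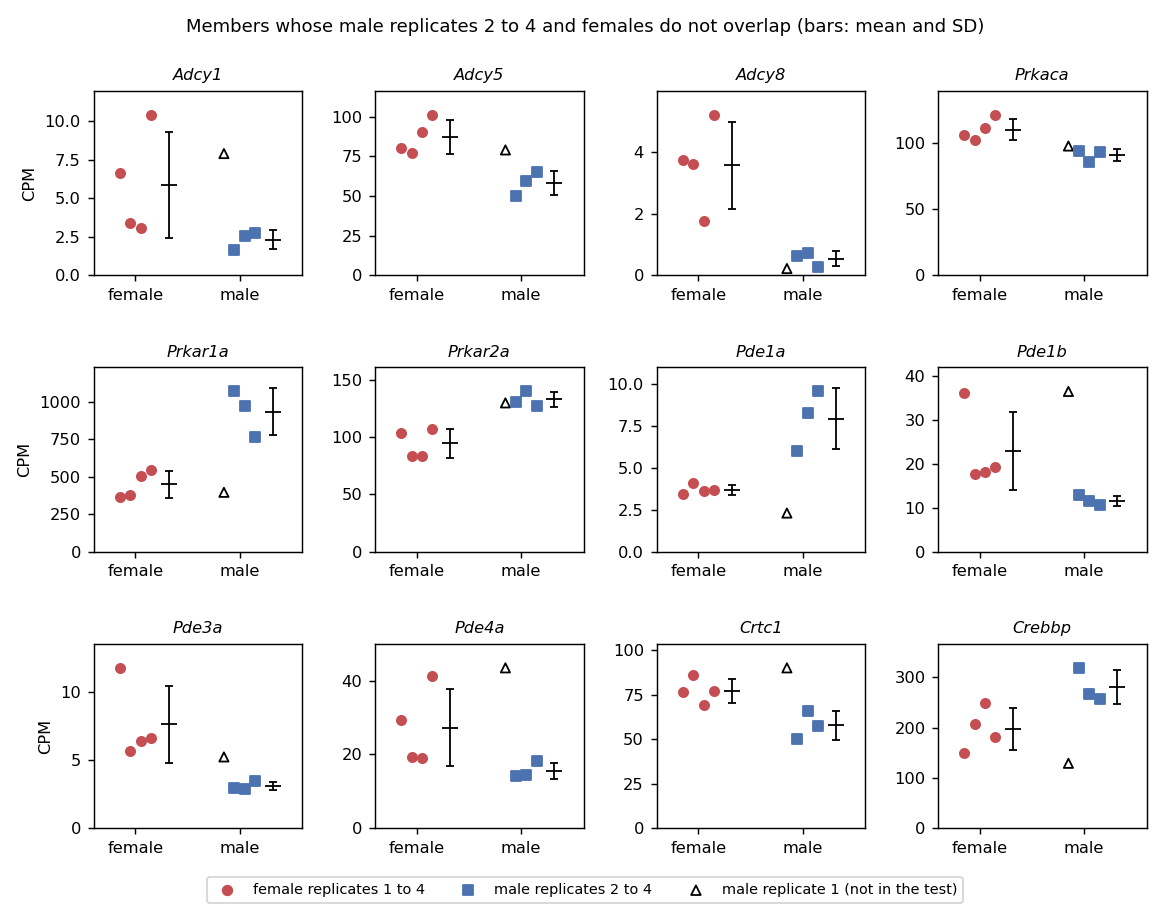
CPM in each library of 12 of the 14 genes whose male replicates 2 to 4 did not overlap the females, each panel on its own axis from 0, with bars for the mean and SD of females and of these males. *Pkig* and *Crem* are left to the plot of genes with low libraries, and here 4 genes were higher in males and 8 in females.

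Among the nuclear factors, 2 of 8 (25.0%, beside 19.9% of all entries) had an unadjusted p below 0.05 and none passed the adjusted threshold in edgeR or DESeq2. *Crem*, which encodes activators and the repressor ICER, had 1.50, 43.9, 53.6 and 90.7 CPM in females, 125, 109 and 146 CPM in male replicates 2 to 4, with male replicate 1 at 52.7 CPM. Its log2 fold change was 1.39 (SE 0.97, adjusted p = 0.493), and without female replicate 1 it was 1.01 (SE 0.30, adjusted p = 0.165). Exons of *Crem* overlap the opposite strand gene *Gm6225* over 8.01% of their length, and those of *Pde3a* overlap *Gm28523* over 5.82%. *Crebbp*, which encodes the acetyltransferase CBP, had 150, 208, 250 and 181 CPM in females, 319, 266 and 257 CPM in male replicates 2 to 4, with male replicate 1 at 129 CPM. Male replicate 1 thus lay below the females and the other males above them, with a log2 fold change of 0.48 (SE 0.19, adjusted p = 0.226). *Crtc1*, a CREB coactivator, had 76.6, 85.9, 69.4 and 77.4 CPM in females, 49.9, 65.8 and 57.7 CPM in male replicates 2 to 4, with male replicate 1 at 90.2 CPM. Here the order was reversed, with the males tested below the females (log2 fold change -0.45, SE 0.16, adjusted p = 0.176) and male replicate 1 above them.

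*Atf1*, a CREB family factor, had 34.6 to 44.8 CPM in females and 29.2 to 38.5 CPM in male replicates 2 to 4. *Creb1* was uneven in both sexes, with 27.8, 77.6, 5.52 and 7.22 CPM in females, 83.2, 11.7 and 85.2 CPM in male replicates 2 to 4, with male replicate 1 at 9.12 CPM. *Crtc2*, *Crtc3* and *Ep300* overlapped between the sexes, with log2 fold changes of 0.01, -0.18 and -0.28. Per kilobase of exon union, *Crebbp* (17.2), *Crem* (13.8) and *Atf1* (11.6) had the highest means of the class and led in 4, 2 and 2 libraries. With the longest transcript, *Crem* (27.8) was above *Crebbp* (21.5), and *Crem*, *Crebbp* and *Atf1* led in 5, 2 and 1 libraries. Without division by length, *Crebbp* led in all 8.

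Single libraries far below the others recurred in the list. A low library was defined, after the values were seen, as one below the median CPM of the 8 libraries divided by 5, for entries with a median of at least 5 CPM. By this rule, 8 of 33 genes (24.2%) had at least 1 low library, beside 12.8% of 12393 entries of the whole table. They were *Adcy6*, *Adcy9*, *Prkar1b*, *Pkig*, *Rapgef3*, *Pde2a*, *Pde7a* and *Crem*, and the low libraries came from both sexes. Of the 14 genes whose groups did not overlap, *Pkig* and *Crem* had a low library and 9 had none (3 higher in males, 6 in females), *Prkar1a* among them. The other 3, *Adcy1*, *Adcy8* and *Pde1a*, had medians below 5 CPM and were not assessed. Why a library was low was not tested.

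**Figure D5:**
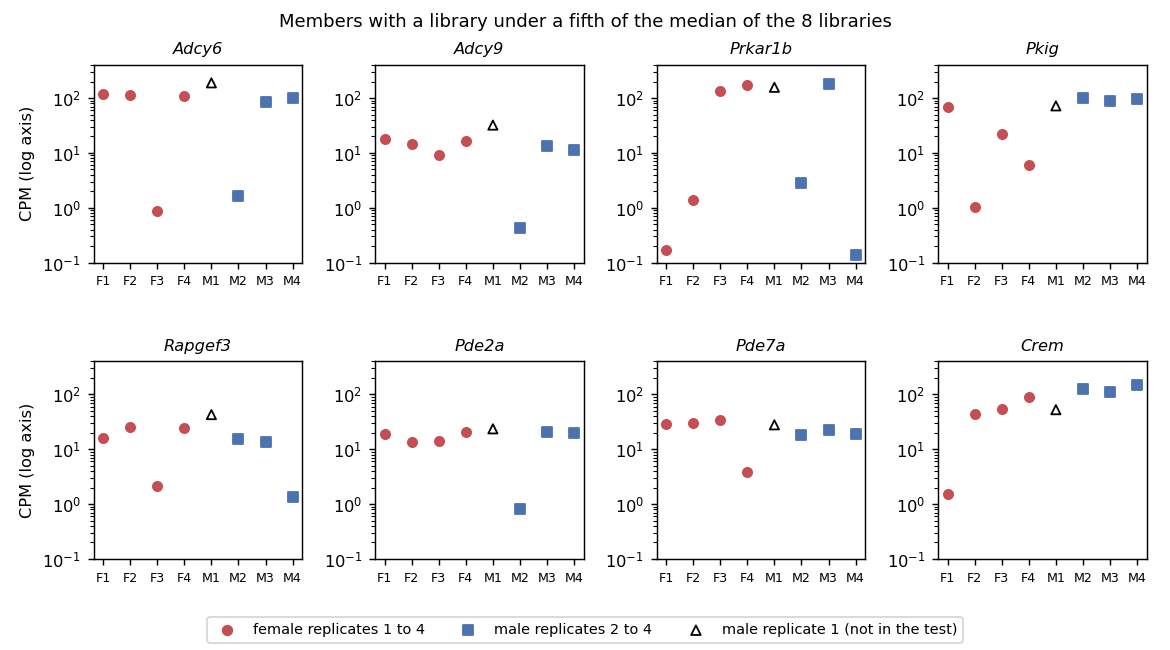
CPM in each library, on a log axis, of the 8 genes with at least 1 low library. *Prkar1b* had 4 low libraries, 2 of each sex, and *Adcy6* fell from at least 86.0 CPM to 0.859 and 1.65 CPM.

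Male replicate 1 lay above all other libraries for 17 of the 45 genes, below them for 7 and within their range for 21. Only *Adcy10* and *Pde11a* lay outside the range by more than 2-fold. *Adcy10* had 0.742 CPM, from 17 counts, where every other library was under the floor of 3 counts, and *Pde11a* had 1.27 CPM, which was 2.28 times the next. With male replicate 1 in the fit, none of the list was called by edgeR's quasi-likelihood test, beside 0.342% of the 19587 entries tested, and 5 of 42 genes (11.9%) had an unadjusted p below 0.05, beside 10.2% of all entries.

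The pathway genes outside the list were followed through 35 genes, of which 31 were tested. Of these, 1 was called by edgeR (3.23%, beside 2.34% of all entries) and DESeq2 called 7, beside 9.93% of all entries. The groups did not overlap for 9 of the 31 (29.0%, beside 22.3% of all entries), 2 higher in males and 7 in females. Beside *Pakap*, DESeq2 called the G protein genes *Gnai2* (149 to 241 CPM in females, 114 to 134 CPM in the males tested, log2 fold change -0.76) and *Gnal* (33.9 to 38.4 and 23.5 to 27.7 CPM, -0.56) and the anchoring protein genes *Akap5* (6.29 to 12.2 and 1.89 to 3.72 CPM, -1.57) and *Akap12* (24.5 to 32.9 and 12.5 to 17.3 CPM, -0.92), all lower in the males tested. It called *Gnai3* (97.5 to 109 and 148 to 178 CPM, 0.58) and *Akap9* (116 to 136 and 156 to 205 CPM, 0.50) higher in the males tested. In edgeR, which gave these fold changes, the 6 genes had adjusted p of 0.0581 to 0.0972. Male replicate 1 lay below every female for *Gnai3* (72.8 CPM), above every female for *Akap9* (141 CPM), within the female range for *Gnai2* (219 CPM) and *Gnal* (36.6 CPM), and below it for *Akap5* (5.98 CPM) and *Akap12* (17.1 CPM). The stimulatory G protein gene *Gnas* was the highest, with 2449 to 8000 CPM in females and 3265 to 3919 CPM in male replicates 2 to 4 (log2 fold change -0.48, adjusted p = 0.564). Among anchoring proteins of protein kinase A, *Akap11* had the highest mean per kilobase (13.7), with 102 to 162 CPM in females and 145 to 198 CPM in males tested. *Prkx*, a kinase related to the catalytic subunits, had 36.0 to 42.5 and 29.8 to 37.9 CPM. *Sik3*, a kinase that acts on CRTC coactivators, had 50.1 to 66.0 and 46.3 to 70.2 CPM. The leading members of the cyclic nucleotide-gated HCN channels and the cyclic AMP-binding Popeye proteins were *Hcn3*, with 4.33 to 15.5 CPM over the 8 libraries, and *Popdc2*, with 0 to 2.99 CPM.

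The gene called was the anchoring protein gene *Pakap*, with 42.3, 47.2, 60.8 and 59.2 CPM in females, 1.14, 4.98 and 7.27 CPM in male replicates 2 to 4, with male replicate 1 at 28.5 CPM. The males lay below the females, with a log2 fold change of -3.58 (SE 0.61, adjusted p = 0.0407). Its exons overlap those of *Akap2* on the same strand over 81.5% of their length, and *Akap2* had 0, 10.8, 19.0 and 17.9 CPM in females and 4.26, 89.8 and 15.7 CPM in male replicates 2 to 4. Summed over the locus, the log2 fold change was -0.67 (adjusted p = 0.715), and the call was lost.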

How the data were processed

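Total RNA of sorted EGFP-positive cells was prepared with a low-input kit and sequenced. Per the methods, the authors trimmed reads with cutadapt, mapped them to mm10 (GRCm38) with STAR and counted them per gene with featureCounts, with default parameters. The deposited values are unnormalized counts per gene in 1 table of 8 samples. Of its 55523 entries, 23362 are 0 in all samples and 28933 carry MSTRG names, as transcript assembly gives them, including 38 of the 45 genes here. The methods do not mention such a step, so the counts may be assembly estimates rounded to whole numbers, which was not tested.

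Male replicates 2 to 4 and the 4 females were compared with edgeR 4.0.16 (R 4.3.3), with TMM factors, filterByExpr, the quasi-likelihood test and Benjamini-Hochberg adjustment over all 20152 entries tested, with a threshold of 0.05. DESeq2 1.42.0 was an alternative. CPM used TMM factors over 8 samples, and levels per kilobase used the exon union of GENCODE M21. Summaries used Python 3.11.15, pandas 2.3.3 and matplotlib 3.10.9. Genes described with values per sample were those called, those whose groups did not overlap, class leaders and those with male replicate 1 outside the others by more than 2-fold, and others were added where a low library touched them. The members and lists were chosen with earlier results of these data known. Depth ranged 1.67-fold between libraries, and counting error is largest for genes near the floor of 3 counts.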

Additional observations from a re-analysis of the deposited data

Results flagged for a closer look

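In each sex, a sample was singled out where its distance to the nearest of the other 3 exceeded Dixon's 95% critical value as a share of the range. This happened in 10 of 88 groups, where a rate of 1 in 20 gives 4.40, although the groups share libraries. Of the groups of genes that passed the filter, 8 of 84 (9.52%) had such a sample, beside 9.71% of the groups of all entries tested, so the share in the list was near that background. By sex, the shares were 9.52% beside 7.82% in females and 9.52% beside 11.6% in males. In males, replicate 1 was the sample concerned in each of the 5 cases. Among genes of the list that passed the filter, it was male replicate 1 in 4 of 4 cases, beside 1539 of 2334 over all entries tested. *Adcy7* had 3.97 CPM there against 1.23 to 1.47 CPM in replicates 2 to 4, and *Adcy10* had 0.742 CPM against 0 to 0.0788. *Pde1b* had 36.5 CPM against 10.6 to 12.8, and *Pde4a* had 43.5 CPM against 14.1 to 18.2. *Prkacb* was lower there, at 112 CPM against 172 to 184.

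In females, replicate 1 was the sample concerned in 4 of 5 cases. Among genes of the list that passed the filter, it was female replicate 1 in 3 of 4 cases, beside 482 of 1575 over all entries tested. *Pde1b* had 36.1 CPM there against 17.8 to 19.4 CPM in the other females, and *Pde3a* had 11.8 CPM against 5.71 to 6.61. *Atf1* had 44.8 CPM against 34.6 to 36.2, and *Pde11a* had 0.556 CPM against 0 in the others, so that any detection would have singled it out. Female replicate 3 had 0.859 CPM of *Adcy6* against 110 to 119.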

How the results depend on the processing

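The entries called genome-wide (471) numbered 2253 with DESeq2, 808 with library size alone, 177 without the filter, 67 with all 8 samples and 88 to 171 with 1 replicate left out. With library size alone, 133 were higher in males and 675 in females, against 198 and 273. The median over all entries shifted from -0.03 to -0.24 on the log2 scale. The list's 2 calls became 7 with DESeq2, 3 with library size alone (*Adcy5*, *Adcy8* and *Pde3a*) and 2 with at least 10 counts in every sample (*Pde1a* and *Prkar1a*), where *Adcy8* was below that minimum and not tested. They became 0 in edgeR without the filter, with all 8 samples and in every fit with 1 replicate left out (0 to 0), with 11, 5 and 7 to 11 genes at an unadjusted p below 0.05. The 1 call among other pathway genes became 7 with DESeq2, 5 with library size alone, 2 with at least 10 counts, 2 with robust dispersion, and 0 in edgeR without the filter, with all 8 samples and with locus sums (8, 6 and 7 at an unadjusted p below 0.05), and it was 0 to 1 with 1 replicate left out. For replicates 2 to 4, same-numbered samples did not deviate together from their group means (correlations -0.04, 0 and 0). Replicate 1 was not checked, and the sources used here do not say whether the numbers pair the samples. With a replicate block, edgeR called 0 entries, 0 of the list and 0 of the other pathway genes, with 2954, 10 and 7 at an unadjusted p below 0.05. In that fit, female replicate 1 had no male of its number, so it did not enter the sex difference.

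Classes with 1 leader per kilobase in all 8 libraries numbered 2, and 1 with the length of the longest transcript, where *Prkacb* led the catalytic subunits in 1 library. With that length, the order by mean also changed between *Crebbp* and *Crem* and among *Pde8a*, *Pde4a* and *Pde4b*. The log2 fold change of *Pkig* moved from 1.91 to 4.08 with the block, where female replicate 1, the female with the most *Pkig*, did not enter the sex difference. Directions turned for genes with low libraries. *Adcy6* had a log2 fold change of 0.14 with all 8 samples and -1.02 to 0.09 with 1 replicate left out, *Prkar1b* 0.14 and -5.75 to 0.44, and *Rapgef3* 0.09 with all 8 samples. *Pde2a* had -0.73 to 0.23 with 1 replicate left out and 0.23 without its low library. *Pde7a* had -0.33 over the 7 libraries tested, -0.66 without its low library (SE 0.17, adjusted p = 0.124 by edgeR) and 0.20 with the block. The cause was not tested.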
